A study of Mus musculus with 4 samples.

Results

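Chief cells of the mouse stomach were compared between 2 groups, cluster 5 and cluster 1 of the study's own grouping of single stomach cells. The deposited table of cells gave each cell a cluster number, and the comparison took every cell numbered 5 and every cell numbered 1. Cluster 5 held 278 cells and cluster 1 held 896 cells, of 4449 cells in 10 clusters. The cells came from the stomachs of 14-week-old female Rosa26iH2b-GFP mice, in which a Tet-on 3G transactivator and a TRE3G-driven H2b-GFP had been knocked into the Rosa26 locus. All mice had eaten a diet with doxycycline for 4 weeks, which switches the GFP-tagged histone on in cells that carry the transactivator, and had then been chased without it for 6 weeks, during which each division dilutes the label. Viable cells without CD45 and CD31 were sorted as Epcam- and GFP-positive cells (GFP+) or as Epcam-positive cells with no selection on GFP (Ep+), and 2 libraries of each sort were sequenced by 10x Genomics 3′ chemistry. The methods state that sorted cells of 2 mice were combined for loading, and nothing read here says that the 2 libraries of a sort came from separate mice. The p-values below thus reflect variation among 4 libraries and no more, and that variation may be technical.

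Chief cells lie at the base of the corpus gland. They fill their cytoplasm with granules of digestive proenzymes and other secreted proteins. In the mouse the contents include pepsinogen, lipid enzymes and intrinsic factor. Chief cells rely on a large endoplasmic reticulum in which these proteins are folded. Mucous neck cells lie above them in the gland, secrete the gel-forming mucin Muc6 with the trefoil peptide Tff2, and are widely regarded as a source of new chief cells. Lgr5, a receptor that strengthens Wnt signalling, marks some chief cells near the gland base.

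The 4 libraries held 444 to 1896 cells each, with 35571141 to 79455225 unique molecular identifiers (UMIs) in all and medians of 31735 to 104840 UMIs per cell. Cluster 5 had 62 cells in GFP+ 1, 40 in GFP+ 2, 85 in Ep+ 1 and 91 in Ep+ 2, and cluster 1 had 145, 257, 200 and 294 cells in these libraries. UMIs were summed per library and cluster, which gave 2274826 to 3753603 UMIs in a cluster 5 sum and 21808381 to 39317472 in a cluster 1 sum. Only 4 cell barcodes occurred in more than 1 library. The clusters had been made by the authors from these same counts, so a difference between them in a gene is partly built in. The tests below say how regularly a difference recurred over the 4 libraries, not that the clusters exist.

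The first difference was in how much of a cell's RNA came from 3 enzyme genes. Clps, the colipase that anchors lipase to fat droplets, Pla2g1b, a secreted phospholipase, and Pgc, pepsinogen C, together gave 55.3%, 61.8%, 55.9% and 54.8% of the UMIs of cluster 5 in GFP+ 1, GFP+ 2, Ep+ 1 and Ep+ 2. In cluster 1 they gave 82.5%, 82.6%, 82.5% and 81.7%. Every cluster 5 sum was below every cluster 1 sum. Per cell, the 3 genes averaged 26693, 35130, 24704 and 20604 UMIs in cluster 5, against 124056, 126312, 94332 and 80612 UMIs in cluster 1. The mean log2 ratio was −1.99 ± 0.16 (SD, n = 4), a 3.97-fold lower count, and it was lower in 4 of 4 libraries (exact sign-flip permutation test, two-sided, p = 0.125, the smallest p that 4 pairs allow). With medians over cells in place of means the log2 ratio was −3.31, a 9.93-fold lower count.

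All other genes together differed much less. Cluster 5 cells averaged 21578, 21741, 19456 and 16998 UMIs of these genes, against 26347, 26674, 20077 and 18079 in cluster 1 cells. The mean log2 ratio was −0.18 ± 0.13 (SD, n = 4), again lower in 4 of 4 libraries (exact sign-flip permutation test, p = 0.125). With medians over cells it was −0.37. Over all genes, cluster 5 averaged 46726 ± 8065 UMIs per cell and cluster 1 averaged 129122 ± 26863 UMIs per cell (SD, n = 4 each).

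**Figure D1:**
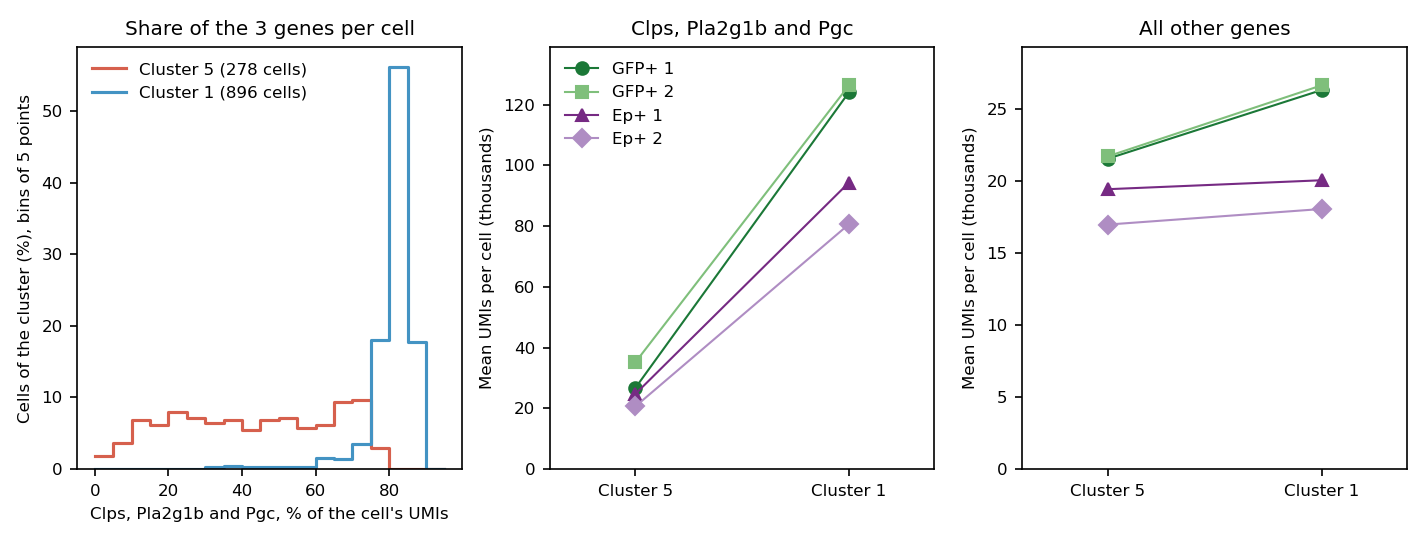
Left, the share of each cell's UMIs that came from Clps, Pla2g1b and Pgc (% of the cell's UMIs, horizontal axis) against the percentage of the cluster's cells in each bin; middle and right, the mean UMIs per cell (in units of 1000) of these 3 genes and of all other genes in each library, with a line joining the 2 clusters of a library. Cluster 5 cells spread from 2.3% to 79.1%, most cluster 1 cells stand near their median of 82.5%, and the gap between the clusters is large for the 3 genes and small for all others.

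This imbalance decides how any other gene compares, so each result was computed with and without the 3 genes in the totals. Unless another scale is named, levels are given as TMM CPM, counts per 1000000 scaled with edgeR's trimmed mean of M-values, which assumes that most genes do not differ. Of 10389 genes tested with the library as a block (edgeR's quasi-likelihood test, Benjamini-Hochberg adjusted p below 0.05), 4823 passed (46.4%), with 2383 higher (22.9%) and 2440 lower (23.5%) in cluster 5, and the median log2 difference over all tested genes was 0.02. With the 3 genes kept in plain library totals, all genes shifted upward by a median of 1.68 on the log2 scale, and 10154 genes passed (97.7%), of which 10106 were higher (97.3%) and 48 lower (0.462%). With the 3 genes left out of plain totals, the shift was 0.39, and 5904 genes passed (56.8%), of which 4990 were higher (48.0%) and 914 lower (8.80%). Per cell in place of per total, the shift was 0.22, with 3510 genes higher and 1343 lower. Leaving the 3 genes out before the TMM factors were computed gave 4820 genes. A gene lower by less than 1.68 on the TMM scale is thus higher in cluster 5 as a share of all its UMIs, and one lower by less than 0.39 is higher as a share of the other genes' UMIs. Where the groups of 4 values did not overlap is said for single genes below, and this held for 3938 of the 10389 genes (37.9%). The shares of higher and lower genes given here for each scale are the background for each count of list members below.

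As a check of the labels, 0 of the 10 tested chief cell markers were higher in cluster 5 and 10 were lower (median log2 difference −2.24), while all 11 tested mucous neck markers were higher (median 5.10). With the 3 genes in plain totals the chief markers were split into 2 higher and 6 lower, and with the 3 genes left out of them 9 were lower. Chief markers were nonetheless abundant in cluster 5. On a TMM scale shared with cluster 0, in which the summed neck markers were highest (12615 to 27714 TMM CPM), the neck markers summed to 6355 to 15949 TMM CPM in cluster 5 and to 957 to 2558 in cluster 1. Cluster 0 is called the neck cells below. Of the genes higher in cluster 5 than in cluster 1, 1539 of 2383 (64.6%) were higher still in the neck cells, and of the lower genes 1813 of 2440 (74.3%) were lower still in the neck cells. These shares are descriptions without a test.

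Most secreted lipid enzymes were lower in cluster 5. Of 5 tested members 4 were lower in cluster 5 and 0 higher (median log2 difference −2.02), and the count was the same with the 3 genes left out of plain totals, but 1 higher and 3 lower with them in. Clps made up 224024, 261827, 239153 and 238745 UMIs per 1000000 UMIs of cluster 5 in GFP+ 1, GFP+ 2, Ep+ 1 and Ep+ 2, against 352483, 363189, 369289 and 378824 in cluster 1. It was lower by each scale, with log2 differences of −2.28 on the TMM scale, −1.88 on totals without the 3 genes and −0.60 on totals with them. Pla2g1b was lower likewise, at −2.53, −2.13 and −0.86. Pnliprp1, a pancreatic lipase-related protein, had 38.8, 43.0, 24.8 and 41.9 TMM CPM in cluster 5, against 180, 152, 139 and 127 in cluster 1 (log2 difference −2.02 ± 0.12 SE, adjusted p = 6.71e-10), and it was lower by 0.35 even as a share of all UMIs. Its relative Pnliprp2, which splits galactolipids, was lower by 1.1 on the TMM scale but higher by 0.58 on totals of all UMIs. Cel, bile salt-stimulated lipase, was below 3 TMM CPM in every sum and did not pass (log2 difference −1.39, adjusted p = 0.0798), though it did without Ep+ 1 (−2.63, adjusted p = 0.00175).

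Pepsinogens moved in opposite directions. Pgc was lower in cluster 5 on the TMM scale and on totals without the 3 genes, with log2 differences of −1.77 and −1.37, but on totals of all UMIs the difference was −0.09 and did not pass (adjusted p = 0.262). Pga5, the gene of pepsinogen A (chr19:10668956-10678071, minus strand), was far higher in cluster 5. It had 606, 249, 514 and 434 TMM CPM in cluster 5, against 4.07, 3.84, 12.7 and 5.97 in cluster 1. The log2 difference was 6.11 ± 0.19 (SE, adjusted p = 7.91e-13), and neck cells had 1088 ± 411 TMM CPM (SD, n = 4) on the shared scale, where cluster 5 had 690 ± 231. Ctse, cathepsin E, another aspartic protease, had 15.5, 39.1, 54.7 and 45.1 TMM CPM in cluster 5 and 1.71 to 3.79 in cluster 1 (log2 difference 3.82, adjusted p = 4.56e-11).

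The trypsin-type genes and their relatives split the same way, with 3 of 5 tested members lower and 2 higher in cluster 5 on all 3 scales. Try4, a trypsin, had 91.7, 197, 91.0 and 158 TMM CPM in cluster 5, against 1077, 1947, 1442 and 2075 in cluster 1. It was 12.5-fold lower (log2 difference −3.64 ± 0.10 SE, adjusted p = 2.36e-13) and still lower by 1.97 as a share of all UMIs. Try10, a further trypsin, had 14.8, 62.1, 70.4 and 46.2 TMM CPM in cluster 5 and 361, 615, 590 and 809 in cluster 1, a 13.1-fold difference. The Try genes are near-copies of each other, and how the counting divided reads between them is not known here. Try5 had no count in cluster 5 outside Ep+ 2, where it had 1.99 TMM CPM, against 2.44 to 31.2 in cluster 1. Cela1, a chymotrypsin-like elastase, ran the other way, with 156, 63.5, 96.5 and 71.1 TMM CPM in cluster 5, against 1.41, 1.16, 1.65 and 2.19 in cluster 1. Its log2 difference was 5.80 ± 0.17 (SE, adjusted p = 2.66e-13), and on the shared scale cluster 5 had 148 ± 63.6 TMM CPM where neck cells had 53.8 ± 22.4 (SD, n = 4 each). Cela1 was thus one of the genes that did not lie between cluster 1 and the neck cells. Spink4, a trypsin inhibitor of mucous cells, was higher as well, by 2.74, or by 2.12 without Ep+ 2.

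Chia1, acidic chitinase (chr3:106113229-106132120, plus strand), varied widely between libraries. It had 651, 4356, 7706 and 6485 TMM CPM in cluster 5, against 30263, 19151, 31299 and 30249 in cluster 1. All cluster 5 sums were lower, and GFP+ 1 stood apart with a log2 difference of −5.54 where the other libraries had −2.22 to −2.02. The fitted difference was −2.84 ± 0.40 (SE, adjusted p = 2.24e-05), −2.14 without GFP+ 1, −2.45 with the 3 genes out of plain totals and −1.18 with them in. Cblif, gastric intrinsic factor, which binds vitamin B12, differed less on the TMM scale. It had 5717, 4508, 4604 and 4854 TMM CPM in cluster 5 and 6802, 7559, 6951 and 8350 in cluster 1, a 1.51-fold lower level (adjusted p = 4.34e-05), but it was higher by 1.08 as a share of all UMIs and did not pass as a share of the other genes' UMIs (log2 difference −0.20, adjusted p = 0.0630). Neck cells had 555 ± 239 TMM CPM on the shared scale, against 7535 ± 834 in cluster 5 (SD, n = 4 each). Clu, clusterin, and Bpifb1, a lipid-binding secreted protein, were higher in cluster 5, by 1.1 and 4.41 on the log2 scale, and Bpifb1 ranged over 127, 53.7, 91.2 and 335 TMM CPM there, with a difference of 5.21 without GFP+ 2.

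Among factors of chief cell differentiation and secretion, 6 of 16 tested genes were higher and 7 lower in cluster 5, with a median log2 difference of −0.13. The split was 8 and 5 on totals without the 3 genes and 13 and 1 on totals of all UMIs. Bhlha15, also called Mist1, a transcription factor that scales up the secretory apparatus of zymogenic cells, had 16.7, 14.5, 11.2 and 14.2 TMM CPM in cluster 5, against 54.4, 39.2, 42.1 and 38.0 in cluster 1. The groups did not overlap and the level was 3.08-fold lower (log2 difference −1.62 ± 0.10 SE, adjusted p = 2.27e-09). Per cell it averaged 1.52, 1.30, 0.894 and 1.02 UMIs in cluster 5 and 4.52, 3.30, 2.68 and 2.18 in cluster 1, yet as a share of all UMIs it did not pass (log2 difference 0.06, adjusted p = 0.598).

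The cargo and sorting genes of the list fell with Bhlha15. Tmed6, a cargo receptor of the early secretory pathway, had 355, 458, 452 and 383 TMM CPM in cluster 5 and 1701, 1872, 1885 and 2062 in cluster 1, 4.58-fold lower. It was also lower, by 0.52, as a share of all UMIs. Furin, a proprotein convertase, had 612, 663, 575 and 598 TMM CPM in cluster 5 and 1688, 1452, 1728 and 1531 in cluster 1, 2.61-fold lower on the TMM scale but higher by 0.29 as a share of all UMIs. Copz2, a coat protein subunit, fell by 1.52, Xbp1, a transcription factor of the unfolded protein response, by 0.63, and Rab3d, a small GTPase of zymogen granules, by 0.47. On totals of all UMIs Xbp1 and Rab3d were higher, by 1.05 and 1.21, and Copz2 did not pass (log2 difference 0.15, adjusted p = 0.131). On totals without the 3 genes Rab3d did not pass (log2 difference −0.07, adjusted p = 0.453).

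The 6 factors that rose were Spdef, Creb3l4, Creb3l1, Foxa2, Gata6 and Esrrg. Spdef, which drives mucous cell maturation, had 48.6, 50.9, 41.9 and 37.6 TMM CPM in cluster 5 and 15.7, 13.2, 14.3 and 11.7 in cluster 1 (log2 difference 1.70, adjusted p = 3.14e-10). Creb3l4, a membrane-bound transcription factor of the reticulum, had 50.4, 38.3, 46.3 and 41.6 TMM CPM in cluster 5, against 5.57, 3.38, 4.32 and 4.91 in cluster 1, a 9.73-fold difference. Its relative Creb3l1 rose by 1.16. The endodermal factors Foxa2 and Gata6 rose by 0.68 and 0.64 and the orphan nuclear receptor Esrrg by 0.92, whereas Foxa1 and Gata4 did not pass, with log2 differences of −0.00 and 0.11.

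Neck cell genes gave the 3 largest rises among genes with at least 50 TMM CPM on average, Pga5, Gkn3 and Muc6. Muc6 (chr7:141633456-141655319, minus strand) had 853, 586, 552 and 479 TMM CPM in cluster 5, against 9.06, 5.28, 22.2 and 6.15 in cluster 1, 64.1-fold higher (log2 difference 6.0 ± 0.26 SE, adjusted p = 2.20e-11). Neck cells had more, 2534 ± 986 TMM CPM on the shared scale, where cluster 5 had 945 ± 248 (SD, n = 4 each). Tff2 was only 3.54-fold higher in cluster 5, with 1701, 747, 4411 and 2529 TMM CPM there and 856, 241, 1180 and 368 in cluster 1, and its libraries overlapped. The mucin glycosyltransferase A4gnt, which adds the terminal sugar that gland mucin carries, and Agr2, a disulfide isomerase needed for mucin folding, were higher by 3.92 and 2.01.

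Gkn3, a gastrokine (chr6:87383256-87388935, minus strand), was among the neck list genes with a higher mean in cluster 5 than in the neck cells. It had 4881, 1137, 2575 and 1641 TMM CPM in cluster 5, against 135, 13.6, 42.8 and 14.0 in cluster 1 (log2 difference 6.05 ± 0.21 SE, adjusted p = 1.70e-12). On the shared scale cluster 5 had 3914 ± 2531 TMM CPM and neck cells had 1429 ± 1080 (SD, n = 4 each), so its mean was highest in cluster 5, with wide spread. Aqp5, a water channel, had 130, 45.8, 89.5 and 68.2 TMM CPM in cluster 5, against 0.296 to 2.41 in cluster 1, and cluster 5 and the neck cells had 128 ± 54.4 and 93.5 ± 28.5 on the shared scale. These 2 genes kept their direction on all 3 scales.

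**Figure D2:**
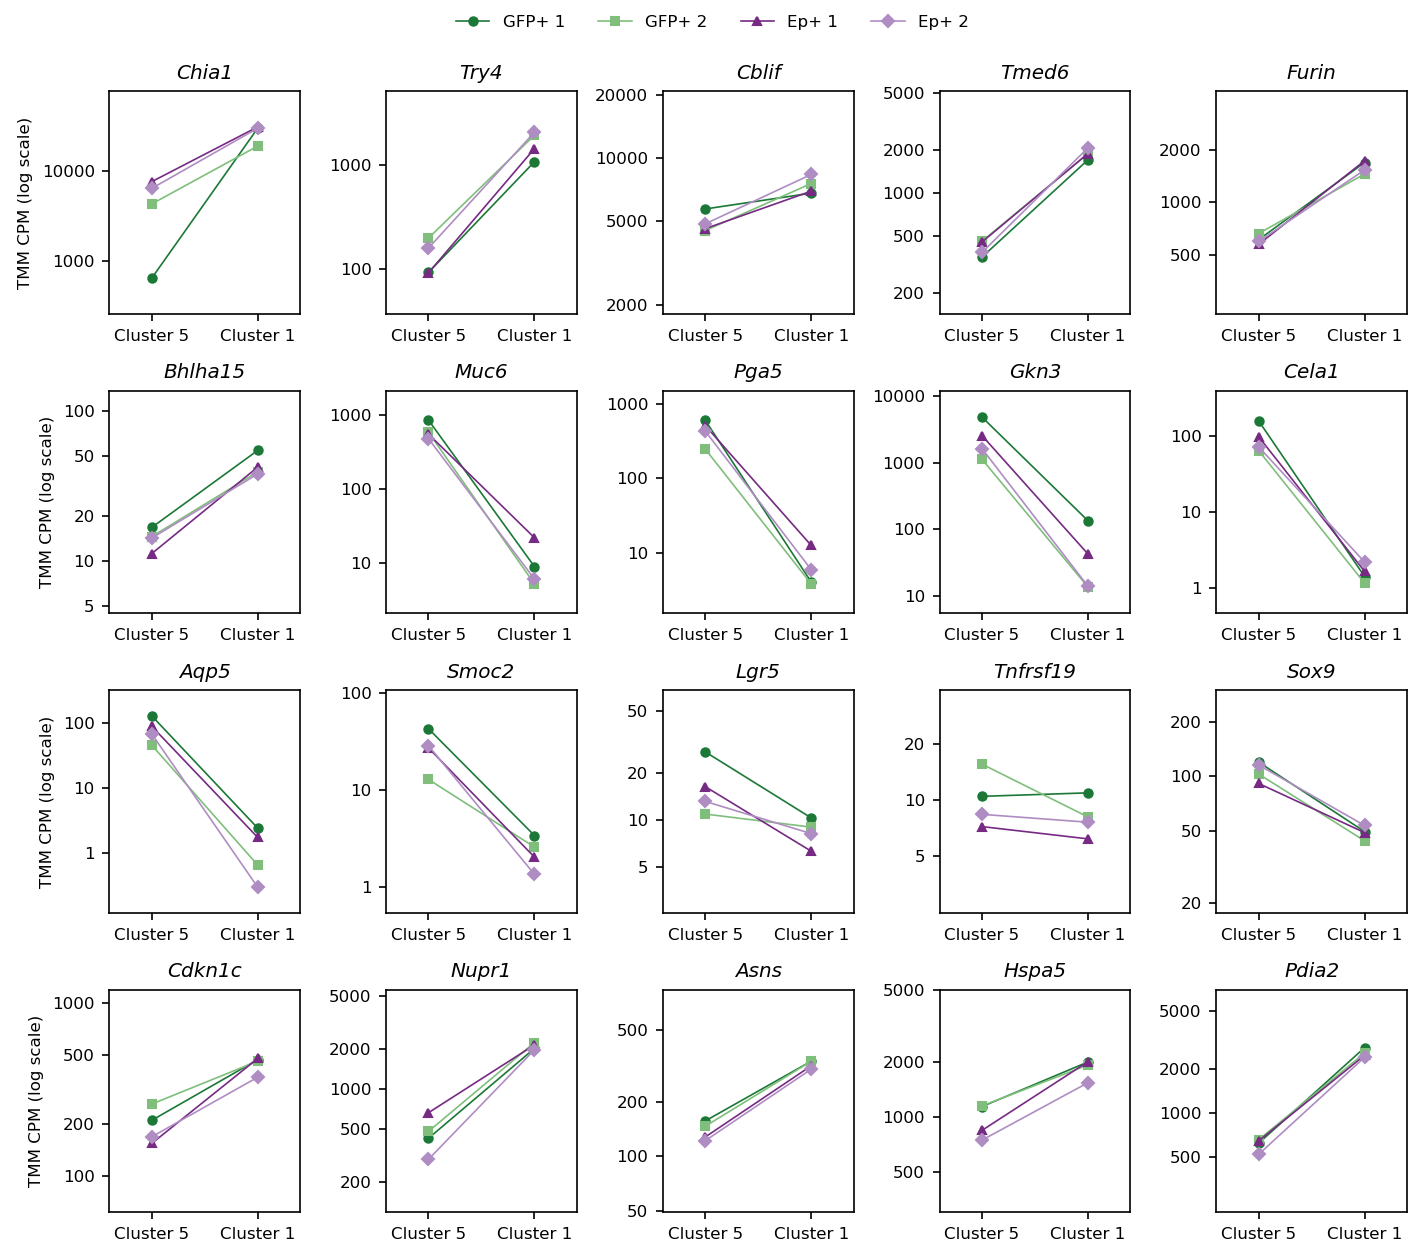
TMM CPM (log scale, vertical axis) of 20 genes in cluster 5 and cluster 1, 1 point per library and a line joining the 2 clusters of a library. Muc6, Pga5, Gkn3, Cela1 and Aqp5 fall steeply toward cluster 1 in every library, the trypsin Try4 and Tmed6 climb toward it, and for Chia1 the GFP+ 1 library stands apart at 651 in cluster 5.

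Wnt target and stem cell genes were higher or not past the test. Of 17 tested members 12 were higher and 0 lower in cluster 5, with a median log2 difference of 0.86, beside 22.9% of all tested genes higher and a median of 0.02. On totals without the 3 genes 15 were higher and 0 lower, beside 48.0% of all tested genes higher. On totals of all UMIs 17 were higher, beside 97.3%, so that count is near the share over all genes. With DESeq2 in place of edgeR 9 were higher and 0 lower, beside 1622 of all 10389 tested genes higher. Aqp5 is on this list and on the neck list. Lgr5 (chr10:115450311-115587780, minus strand) had 27.4, 10.9, 16.4 and 13.2 TMM CPM in cluster 5, against 10.3, 8.98, 6.29 and 8.16 in cluster 1. The lowest cluster 5 library stood just above the highest cluster 1 library, and the level was 1.98-fold higher (log2 difference 0.99 ± 0.16 SE, adjusted p = 6.96e-05). Per cell, Lgr5 averaged 2.48, 0.975, 1.31 and 0.945 UMIs in cluster 5 and 0.855, 0.755, 0.40 and 0.469 in cluster 1. The log2 difference was 1.38 on totals without the 3 genes and 2.66 on totals of all UMIs. Neck cells had 2.51 ± 1.17 TMM CPM of Lgr5 on the shared scale, where cluster 5 had 26.0 ± 11.2 and cluster 1 had 12.9 ± 2.58 (SD, n = 4 each).

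Tnfrsf19, also called Troy, another Wnt target marking chief cells, had 10.5, 15.7, 7.23 and 8.41 TMM CPM in cluster 5, against 11, 8.15, 6.21 and 7.63 in cluster 1. The libraries overlapped and the gene did not pass (log2 difference 0.31 ± 0.15 SE, adjusted p = 0.114), but it did without GFP+ 1 (0.44, adjusted p = 0.0475). It passed on totals without the 3 genes (0.71, adjusted p = 0.00125), on totals of all UMIs (1.98) and per cell (0.52). The Wnt feedback genes Rnf43, Znrf3, Axin2 and Nkd1, which restrain the pathway, rose by 0.75, 0.60, 0.67 and 1.64, and Lgr4, a relative of Lgr5, by 0.86. Znrf3 no longer passed without GFP+ 1 (0.39) or Ep+ 2 (0.51), nor Axin2 without Ep+ 2 (0.57). Ascl2, Ephb2, Tcf7 and Sp5 did not pass, with log2 differences of 0.34, 0.48, 0.38 and −0.14. Smoc2, a matricellular protein used as an intestinal stem cell marker, had 42.7, 12.9, 27.1 and 28.6 TMM CPM in cluster 5, against 3.41, 2.59, 2.04 and 1.36 in cluster 1, 11.4-fold higher. It too exceeded the neck cells, with 42.6 ± 18.6 TMM CPM in cluster 5 and 4.41 ± 2.69 in neck cells on the shared scale (SD, n = 4 each). Sox9, a progenitor transcription factor, had 119, 103, 91.0 and 115 TMM CPM in cluster 5 and 49.4, 43.9, 48.7 and 53.4 in cluster 1 (log2 difference 1.13, adjusted p = 9.15e-09). Cd44, a surface receptor, and Lrig1, a restraint on EGF receptor signalling, rose by 3.28 and 1.47.

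Shares of cells with at least 1 UMI gave the same order for Lgr5. After each cell had been thinned to 8000 UMIs of the other genes, Lgr5 was counted in 30.9% of 223 cluster 5 cells, 15.3% of 836 cluster 1 cells and 4.08% of 1079 neck cells. Without thinning the shares were 47.1%, 30.0% and 6.78%, with medians of 16049, 21444 and 20100 UMIs of the other genes per cell. For Tnfrsf19 the thinned shares were 19.7% in cluster 5 and 18.2% in cluster 1, beside 8.71% in neck cells. Bhlha15 was counted in 30.5% of cluster 5 and 61.7% of cluster 1 cells, beside 5.75% of neck cells. Thinning left out 55 cells of cluster 5, 60 of cluster 1 and 42 of the neck cells, and the shares cover counting only.

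Genes used as markers of reserve cells in the stomach were divided, with 3 of 8 tested higher, 3 lower and a median of −0.06. Gper1, a membrane estrogen receptor, and Cdkn1c, the cell cycle inhibitor p57, were lower with Bhlha15. Cdkn1c had 210, 261, 154 and 169 TMM CPM in cluster 5, against 470, 461, 477 and 372 in cluster 1 (log2 difference −1.19 ± 0.10 SE, adjusted p = 6.39e-08), and Gper1 fell by 1.26. As a share of all UMIs all 3 turned, Cdkn1c to 0.49, Gper1 to 0.41 and Bhlha15 to 0.06. Bmi1, a Polycomb protein, did not pass (log2 difference −0.03, adjusted p = 0.912). Stmn1, a microtubule regulator of dividing cells, had 2.14, 19.0, 30.2 and 17.0 TMM CPM in cluster 5 and 1.41, 1.20, 2.04 and 3.02 in cluster 1, and its low cluster 5 value in GFP+ 1 overlapped cluster 1. Runx1, a transcription factor, and Kitl, the ligand of the receptor Kit, rose by 0.80 and 1.41.

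The genes of protein folding and export were mostly lower in cluster 5 on the TMM scale. Among chaperones and redox enzymes of the endoplasmic reticulum, 21 of 28 tested genes were lower and 3 higher, with a median log2 difference of −0.76, beside 23.5% of all tested genes lower. On totals without the 3 genes 16 were lower and 7 higher. As a share of all UMIs 1 was lower and 27 higher, beside 97.3% of all tested genes higher. Hspa5, the chaperone BiP that holds nascent chains and senses unfolded protein, had 1140, 1150, 843 and 745 TMM CPM in cluster 5, against 2008, 1933, 2014 and 1543 in cluster 1 (log2 difference −0.97 ± 0.09 SE, adjusted p = 1.35e-07). Per cell it averaged 103, 103, 67.2 and 53.5 UMIs in cluster 5 and 167, 162, 128 and 88.7 in cluster 1. The groups did not overlap on the TMM scale, and within each library the value per cell was lower in cluster 5. Pdia2, a disulfide isomerase of pancreas-like secretory cells, had 618, 652, 641 and 518 TMM CPM in cluster 5 and 2787, 2560, 2469 and 2395 in cluster 1, 4.21-fold lower, and stayed lower by 0.40 as a share of all UMIs.

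Smaller steps were seen for Hsp90b1, Calr, Pdia6 and Ppib, general folding proteins of the reticulum, which fell by 0.55, 0.51, 0.61 and 0.52. On totals without the 3 genes Pdia6 still passed (−0.21), but Hsp90b1, Calr and Ppib did not (log2 differences of −0.15, −0.12 and −0.12, adjusted p of 0.148, 0.199 and 0.200). Dnajc3, a co-chaperone of Hspa5, fell by 1.21, Creld2 by 1.28 and Sdf2l1 by 1.12. Pdia3 and Dnajc10, which act on disulfides of glycoproteins and of misfolded proteins, rose by 0.41 and 0.83, and the lectin chaperone Canx did not pass (log2 difference 0.05, adjusted p = 0.653). Among genes of endoplasmic reticulum associated degradation, which sends misfolded protein to the proteasome, 13 of 14 were lower and 0 higher (median −1.03), 12 were lower on totals without the 3 genes, and 13 were higher as a share of all UMIs. Herpud1, a scaffold of this pathway, had 317, 425, 294 and 274 TMM CPM in cluster 5, against 730, 900, 843 and 715 in cluster 1 (log2 difference −1.30, adjusted p = 1.86e-09). The ubiquitin ligase Syvn1 and the channel protein Derl3 fell by 1.32 and 1.87, and as a share of all UMIs Derl3 did not pass (log2 difference −0.20, adjusted p = 0.156).

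The promoters of these genes are shown because their members moved together and because many carry a known element. The element searched was CCAAT and CCACG with 9 bases between them, the endoplasmic reticulum stress response element through which Xbp1 and Atf6 act, on both strands of the 300 bases from 250 before to 50 after each gene start in RefSeq (GRCm38.p6). It was found in 39 of 32851 promoters (0.119%) and in 15 of 8287 promoters of tested genes (0.181%). Of 28 tested chaperone genes 24 had a promoter in the table, and 7 of these held it (29.2%), as did 2 of 11 degradation genes (18.2%). The windows below run from 30 bases before to 30 bases after the element, 5′ to 3′ on the gene's strand and ending before the gene start, with the element in capitals.
Hspa5, chr2:34771995-34772073, plus strand: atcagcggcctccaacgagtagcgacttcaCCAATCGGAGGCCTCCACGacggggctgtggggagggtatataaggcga
Dnajc3, chr14:118937797-118937875, plus strand: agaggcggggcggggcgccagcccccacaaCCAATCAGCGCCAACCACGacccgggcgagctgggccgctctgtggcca
Pdia6, chr12:17266461-17266539, plus strand: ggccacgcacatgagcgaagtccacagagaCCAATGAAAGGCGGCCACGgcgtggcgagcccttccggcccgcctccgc
Syvn1, chr19:6046502-6046575, plus strand: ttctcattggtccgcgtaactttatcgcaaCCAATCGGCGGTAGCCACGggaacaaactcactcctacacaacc
Creld2, chr15:88819490-88819568, plus strand, element reversed: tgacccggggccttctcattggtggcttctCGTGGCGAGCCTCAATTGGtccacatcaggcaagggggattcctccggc
Derl3, chr10:75893212-75893290, plus strand, element reversed: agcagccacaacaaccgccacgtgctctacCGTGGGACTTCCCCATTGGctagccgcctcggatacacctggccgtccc
Canx, chr11:50325770-50325848, minus strand: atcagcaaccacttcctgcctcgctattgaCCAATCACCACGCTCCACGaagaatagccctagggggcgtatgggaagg
The remaining carriers were Hsp90b1, which held it 2 times, and Calr. Of the 9 carriers 8 were lower in cluster 5 on the TMM scale and Canx was not past the test. That is near the share of the lists themselves, with 21 of 28 chaperone and 13 of 14 degradation genes lower. On totals without the 3 genes Hsp90b1 and Calr did not pass. A match of letters is a description, not evidence of use.

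Translocation, glycosylation and vesicle coat genes were lower as a body, with 40 of 45 lower and 0 higher (median −0.70) on the TMM scale, 28 lower and 4 higher on totals without the 3 genes, and 0 lower and 44 higher as a share of all UMIs. Ssr4, a subunit of the translocon-associated complex, had 352, 414, 362 and 381 TMM CPM in cluster 5, against 1092, 1178, 1093 and 1191 in cluster 1, and fell by 1.59. Sec61b, of the translocation channel, fell by 1.07, and Tmed3, of the coated vesicles, by 0.84. The 13 mitochondrially encoded genes were all lower on the TMM scale (median −0.69), 10 of them on totals without the 3 genes and 0 on totals of all UMIs, where all 13 were higher. Among 62 cytosolic ribosomal protein genes 46 were lower and 0 higher on the TMM scale (median −0.27). On totals without the 3 genes 23 were higher and 3 lower, beside 48.0% higher and 8.80% lower of all tested genes. All 62 were higher on totals of all UMIs, so no one direction held for them.

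Atf4, the transcription factor of the integrated stress response, and its targets were lower on the TMM scale. Of 23 tested genes 17 were lower and 1 higher (median −0.96), 12 lower and 3 higher on totals without the 3 genes, and 2 lower and 16 higher on totals of all UMIs. Atf4 itself differed little, with 64.5, 74.4, 65.5 and 62.1 TMM CPM in cluster 5, against 82.4, 84.1, 73.1 and 73.5 in cluster 1. Its log2 difference was −0.23 ± 0.07 (SE, adjusted p = 0.0171), and it did not pass on totals without the 3 genes (0.16, adjusted p = 0.0707) or per cell (−0.02, adjusted p = 0.913), nor without Ep+ 2 (−0.24, adjusted p = 0.0773). Atf3, a factor induced with it, behaved alike, at −0.25 on the TMM scale, 0.14 on totals without the 3 genes and −0.03 per cell, and it did not pass without GFP+ 2 (−0.17) or Ep+ 1 (−0.23).

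Several targets had larger differences than Atf4 itself. Nupr1, a small nuclear stress protein, had 426, 479, 661 and 296 TMM CPM in cluster 5 and 2005, 2220, 2133 and 1959 in cluster 1, 4.64-fold lower (adjusted p = 3.35e-10), and it was lower by 0.54 even as a share of all UMIs. Chac1, which breaks down glutathione, had 14.8, 28.0, 18.0 and 9.33 TMM CPM in cluster 5, against 67.3, 161, 64.0 and 56.2 in cluster 1, 4.82-fold lower, and likewise lower by 0.60 on totals of all UMIs. Asns, asparagine synthetase, had 157, 147, 128 and 122 TMM CPM in cluster 5 and 337, 337, 318 and 304 in cluster 1. It fell by 1.23 on the TMM scale and by 0.84 on totals without the 3 genes, but rose by 0.44 on totals of all UMIs. Phgdh, of serine synthesis, Slc3a2, a chain of amino acid transporters, and Ddit4, an inhibitor of mTORC1, fell by 1.57, 1.54 and 1.08. Stc2, the secreted glycoprotein stanniocalcin, was the gene counted as higher, at 0.559 to 1.68 TMM CPM in cluster 5 and 0 to 0.166 in cluster 1. The tRNA synthetases were 14 of 19 lower and 2 higher on the TMM scale (median −0.54), 5 and 4 on totals without the 3 genes, and 0 and 19 on totals of all UMIs.

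**Figure D3:**
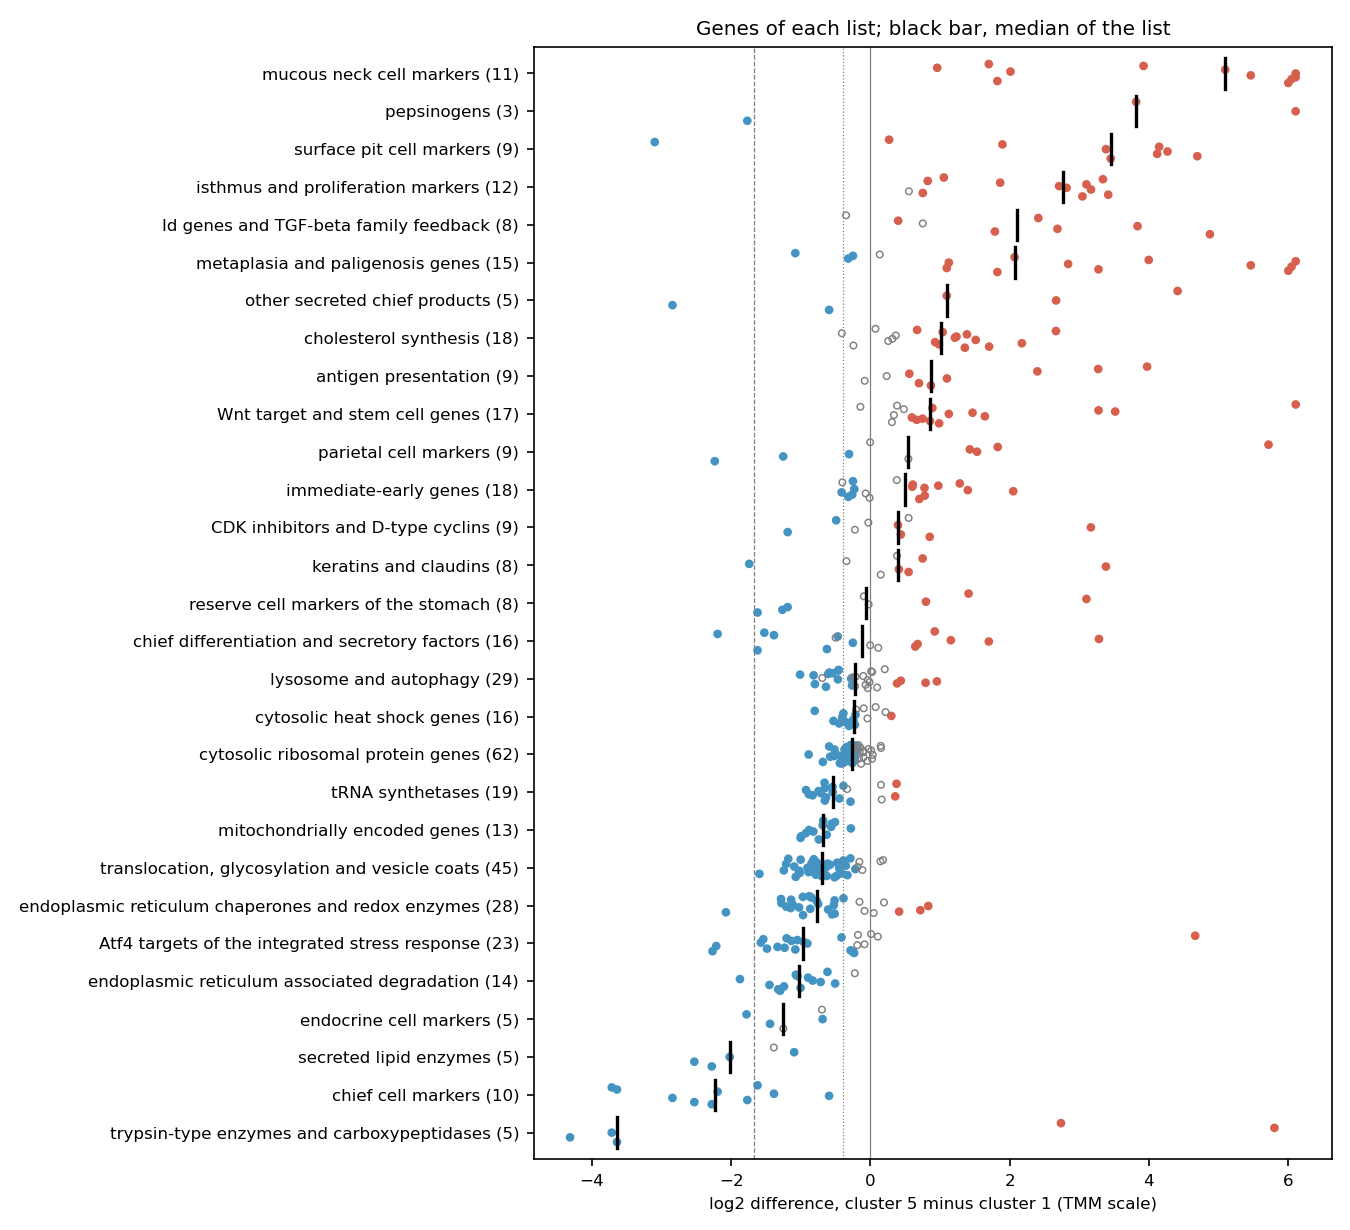
log2 difference of each tested gene (cluster 5 minus cluster 1, TMM scale, horizontal axis) by list, with the number tested in parentheses, filled points for genes past the test, open points for the others, and a black bar at the list's median. Points left of the dashed line, at a difference of 1.68 below 0, tend to be lower on totals of all UMIs too, and those left of the dotted line, at 0.39 below 0, tend to be lower on totals without the 3 genes.

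Heat shock and immediate-early genes, which cell dissociation is known to induce, moved in both directions on the TMM scale. Of 16 cytosolic heat shock genes 10 were lower and 1 higher on the TMM scale, with a median of −0.23, and the count of lower genes was 6 without GFP+ 2, Ep+ 1 or Ep+ 2. On totals without the 3 genes 1 was lower and 5 higher, beside 8.80% lower and 48.0% higher of all tested genes. Hspa8 had 617, 686, 598 and 484 TMM CPM in cluster 5, against 866, 1133, 843 and 645 in cluster 1, and fell by 0.53, whereas Dnajb1, its co-chaperone, rose by 0.30 but did not pass without Ep+ 2 (0.25). Of 18 immediate-early genes 9 were higher and 5 lower, with a median of 0.49, beside 0.02 over all tested genes. The lower ones were 3 without GFP+ 2 or Ep+ 2, and 0 on totals without the 3 genes. Without cells called doublets 8 were higher and 5 lower, with a median of 0.21. Fos had 916, 1076, 797 and 643 TMM CPM in cluster 5 and 504, 677, 492 and 428 in cluster 1 (log2 difference 0.70, adjusted p = 7.28e-07), while its partner Jun was lower by 0.32 on the TMM scale and higher by 0.08, without passing, on totals without the 3 genes. Zfp36, an RNA-binding protein that shortens the life of cytokine mRNAs, and Nr4a1, a nuclear receptor, rose by 1.4 and 1.28.

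Cholesterol synthesis was higher in cluster 5. Of 18 tested genes 12 were higher and 0 lower on the TMM scale, with a median of 1.01, beside 22.9% of all tested genes higher. On totals without the 3 genes 16 were higher, beside 48.0%. Hmgcs1, an early enzyme of the pathway, had 24.8, 24.3, 62.4 and 42.1 TMM CPM in cluster 5, against 14.6, 11.9, 16.0 and 15.3 in cluster 1 (log2 difference 1.36 ± 0.14 SE, adjusted p = 9.54e-07). Idi1, a later enzyme, rose by 2.18. No cluster 5 library overlapped cluster 1 for Hmgcs1, and cluster 5 and the neck cells lay within each other's spread on the shared scale, at 58.8 ± 27.5 and 72.0 ± 29.2 TMM CPM (SD, n = 4 each). The sterol element TCAC, any base, CCAC was present in 1 of 12 promoters of the list (8.33%, Hmgcs1), beside 408 of 32851 promoters (1.24%), on both strands. Lysosome and autophagy genes were 12 lower and 4 higher of 29 (median −0.22). On totals without the 3 genes 3 were lower and 12 higher, beside 8.80% lower and 48.0% higher of all tested genes. Psap, the precursor of saposins, rose by 0.96, and Gabarap, which coats autophagosomes, fell by 1.01.

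Of all tested genes, 22.9% were higher on the TMM scale, 48.0% on totals without the 3 genes and 97.3% on totals of all UMIs. The counts of the lists that follow on totals of all UMIs are near that last share. Of 9 CDK inhibitors and cyclins 4 were higher and 2 lower, against 6 and 1 on totals without the 3 genes and 9 and 0 on totals of all UMIs. Ccnd1, cyclin D1, had 39.7, 24.9, 42.8 and 19.4 TMM CPM in cluster 5, against 7.15, 2.13, 3.93 and 1.66 in cluster 1, an 8.98-fold difference. Ccnd2 rose by 0.40. Antigen presentation genes were 7 of 9 higher and 0 lower, and all 9 were higher on both kinds of plain totals. The class I heavy chains H2-K1 and H2-D1 rose by 0.87 and 0.70, while their light chain B2m did not pass (log2 difference −0.08, adjusted p = 0.422). Id genes and TGF-beta family feedback genes were 6 of 8 higher and 0 lower (median 2.10), with 7 higher on totals without the 3 genes and 8 on totals of all UMIs. Id2, an inhibitor of helix-loop-helix factors, had 57.5, 60.4, 63.0 and 58.1 TMM CPM in cluster 5 and 14.1, 15.8, 23.0 and 16.9 in cluster 1 (log2 difference 1.79, adjusted p = 3.29e-10). Epcam, the surface protein on which all cells were sorted, had 204, 142, 190 and 202 TMM CPM in cluster 5 and 59.5, 62.0, 68.2 and 66.4 in cluster 1, 2.86-fold higher. Genes tied to metaplasia were 11 of 15 higher and 3 lower, 12 and 1 on totals without the 3 genes and 15 and 0 on totals of all UMIs, but Muc6, Gkn3 and other neck genes are among them.

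Cluster 5 was not uniform. Its cells had between 2.3% and 79.1% of their UMIs from the 3 enzyme genes, with a median of 43.4%, and cluster 1 cells between 31.2% and 89.3%, with a median of 82.5%. To describe this range, the 130 cluster 5 cells below 40% were set beside the 148 cells at or above it. Below 40% there were 31, 17, 38 and 44 cells in GFP+ 1, GFP+ 2, Ep+ 1 and Ep+ 2. The values are a range and not 2 cell types, since 34 cells lay within 5 points of the 40% mark, and the mark was chosen after the values were seen, so no test was made. Levels in this comparison are UMIs per 1000000 UMIs of all genes other than Clps, Pla2g1b and Pgc.

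Muc6, Gkn3 and Cela1 were lower toward cluster 1 along this range. Muc6 stood at 5427 below 40%, at 1063 from 40% upward and at 30.4 in cluster 1, beside 6319 in neck cells. Gkn3 stood at 23005, 4880 and 135, beside 3480 in neck cells, and Cela1 at 1103, 54.6 and 5.0, beside 181. The cells below 40% were higher in all 4 libraries for each of these genes, and for Gkn3 and Cela1 they were above the neck cells. As medians over cells, Muc6 was 4406 below 40%, 196 from 40% upward and 0 in cluster 1, and Gkn3 was 11216, 867 and 0. The neck marker Tff2 ran otherwise, at 7989 below 40%, 12316 from 40% upward and 1837 in cluster 1. It was higher below 40% in 1 of 4 libraries. Without cells called doublets Tff2 stood at 7753 below 40% and at 5371 from 40% upward. Pga5 stood at 3410, 1221 and 19.7, and was higher below 40% in 3 of 4 libraries.

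Lgr5 followed Muc6 and Gkn3 in this order although neck cells had the least of it. It stood at 117 below 40%, at 49.3 from 40% upward and at 26.8 in cluster 1, beside 5.83 in neck cells. The cells below 40% had 1.26 to 3.14 times the Lgr5 of the others in the 4 libraries, at 167, 52.7, 128 and 77.8 against 74.7, 41.7, 40.7 and 45.0. Smoc2 stood at 255, 52.6 and 7.30, beside 8.52 in neck cells.

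Chief cell genes were higher toward cluster 1. Try4 stood at 59.9 below 40%, at 772 from 40% upward and at 5420 in cluster 1, and Hspa5 at 2793, 4472 and 5879, lower below 40% in all 4 libraries. Chia1 stood at 719, 31510 and 84345, yet its medians over cells were 182, 358 and 12265, so few cells carried most of it in cluster 5. Without cells called doublets it stood at 549 below 40% and at 12102 from 40% upward. Cblif stood at 20564, 20555 and 23730 in pooled cells, beside 1229 in neck cells. Its medians over cells were 15556, 20177 and 23561, and it was higher below 40% in 1 of 4 libraries. Without cells called doublets Cblif stood at 21077 below 40% and at 25410 from 40% upward.

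**Figure D4:**
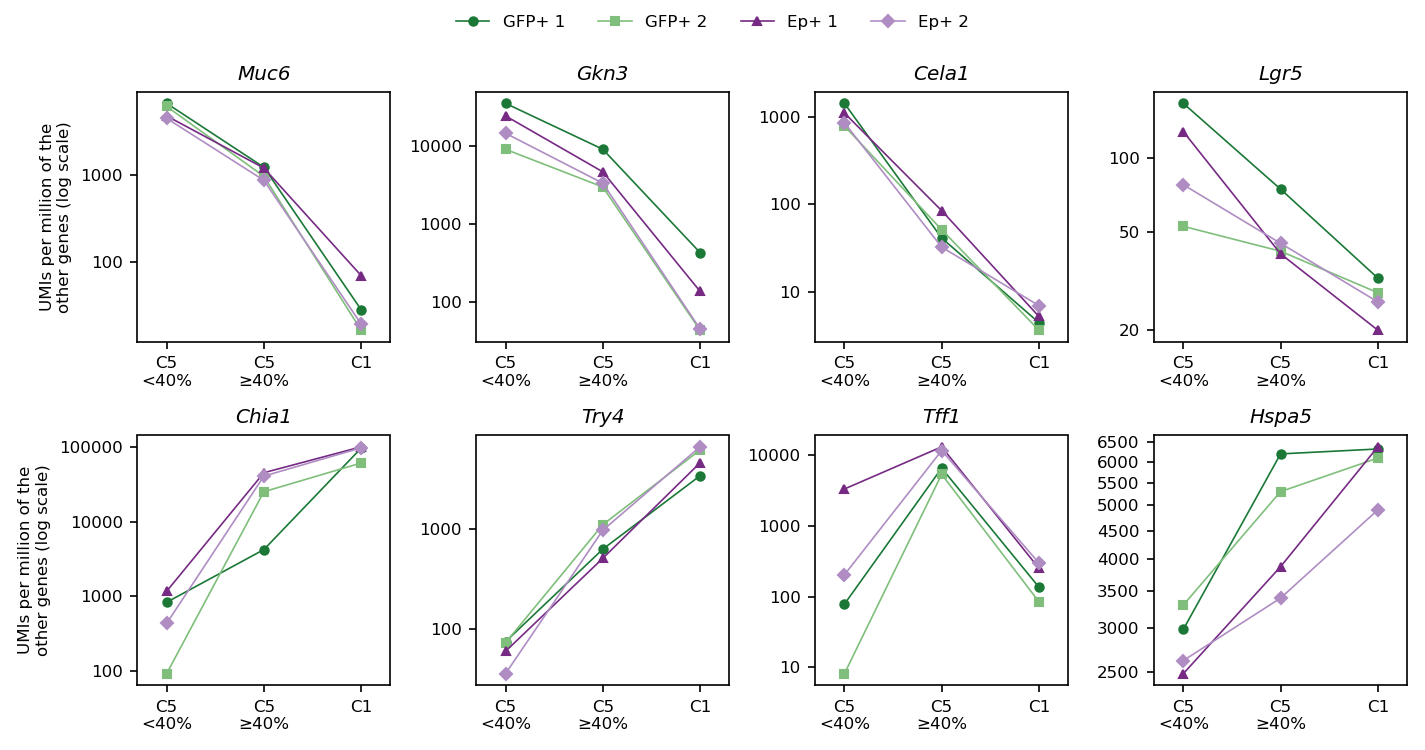
UMIs per 1000000 UMIs of the other genes (log scale, vertical axis) for 8 genes in cluster 5 cells with less than 40% of UMIs from the 3 enzyme genes (C5 <40%), in the other cluster 5 cells (C5 ≥40%) and in cluster 1 (C1), 1 line per library. Muc6, Gkn3, Cela1 and Lgr5 decline from left to right in all 4 libraries, Try4 and Hspa5 climb, and Tff1 peaks in the middle group. Called doublets are included. Without them Tff1 in the middle group was 6240 and 12498 in GFP+ 1 and Ep+ 1, against 136 and 247 in cluster 1. In GFP+ 2 and Ep+ 2 it was 57.4 and 247, against 85.1 and 299.

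Markers of other cell types moved with cluster 5. Of 9 tested pit cell markers 8 were higher and 1 lower in cluster 5 (median 3.45), with a summed level, on the scale shared with cluster 0, of 4275 to 9324 TMM CPM in cluster 5 and 11507 to 13954 in cluster 1, where 1 marker, Psca, makes up most of it. Single genes here are on the scale of the 2 clusters alone. Psca, a surface antigen, had 533, 1575, 1059 and 861 TMM CPM in cluster 5 and 7787, 9041, 7285 and 8101 in cluster 1. Tff1, a trefoil peptide that defines pit cells, had 889, 940, 2494 and 1886 TMM CPM in cluster 5, against 43.2, 26.9, 79.3 and 94.1 in cluster 1 (log2 difference 4.70, adjusted p = 2.36e-13). Gkn1 and Gkn2, gastrokines of pit cells, rose by 4.12 and 4.27. Of 12 tested isthmus and proliferation markers 11 were higher and 0 lower (median 2.76), with a sum on the shared scale of 112 to 395 TMM CPM in cluster 5 and 66.9 to 99.4 in cluster 1.

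Scrublet called 8, 4, 14 and 11 cluster 5 cells doublets in GFP+ 1, GFP+ 2, Ep+ 1 and Ep+ 2 (12.9%, 10.0%, 16.5% and 12.1%), against 0, 2, 2 and 0 cells of cluster 1, and 74 of all 4449 cells (1.66%). The 37 called cells of cluster 5 had a median of 107636 UMIs, against 25510 in its other cells, and 32 of them lay at or above the 40% mark. They held 27.8% of the UMIs of cluster 5 outside the 3 genes, but 69.5% of those of Tff1, 71.1% of Gkn1, 77.5% of Muc5ac, the mucin of pit cells, 70.9% of Mki67, a proliferation marker, and 75.8% of Chia1. They held only 6.85% of Muc6, 8.41% of Pga5, 4.37% of Gkn3, 3.83% of Cela1 and 6.41% of Lgr5.

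Without the called cells 4667 genes passed in place of 4823, and 3 of the 9 pit markers were higher. Tff1, Gkn1, Gkn2, Muc5ac and Lgals2, a galectin, no longer passed, with log2 differences of 1.94, 1.86, 2.13, 1.5 and 0.82 and adjusted p of 0.0960, 0.102, 0.0709, 0.0615 and 0.150 (edgeR). The remaining cluster 5 cells still had Tff1 at 3187 and 7299 UMIs per 1000000 UMIs of the other genes in GFP+ 1 and Ep+ 1, against 136 and 247 in cluster 1, but 41.6 and 227 in GFP+ 2 and Ep+ 2, against 85.1 and 299. The difference for Chia1 widened to −4.26, that for Lgr5 to 1.30 and that for Muc6 to 6.80, and Tnfrsf19 passed at 0.50 (adjusted p = 0.0270). All 11 neck markers, 15 Wnt target and stem cell genes and 12 cholesterol genes were higher without them, and 22 chaperones and 13 degradation genes were lower. Id1, which drew 64.2% of its UMIs from the called cells, stayed higher by 3.80. Mki67 stayed higher by 1.82, with uneven libraries and few UMIs. Per 1000000 UMIs of the other genes, cluster 5 had 0.879, 35.4, 4.81 and 11.1 in GFP+ 1, GFP+ 2, Ep+ 1 and Ep+ 2. Cluster 1 had 0.524, 1.33, 4.31 and 3.76, so the gap was widest in GFP+ 2 and small in Ep+ 1. Gsta1, a glutathione transferase, still passed, at 3.07, but on 2 libraries. It had 122 and 524 UMIs per 1000000 UMIs of the other genes in cluster 5 in GFP+ 1 and Ep+ 1, against 8.38 and 8.87 in cluster 1, and 1.54 and 13.9 in GFP+ 2 and Ep+ 2, against 2.21 and 16.6. Tff2, Ctse and Spink4 stayed higher with smaller differences, of 1.13, 3.00 and 1.85.

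**Figure D5:**
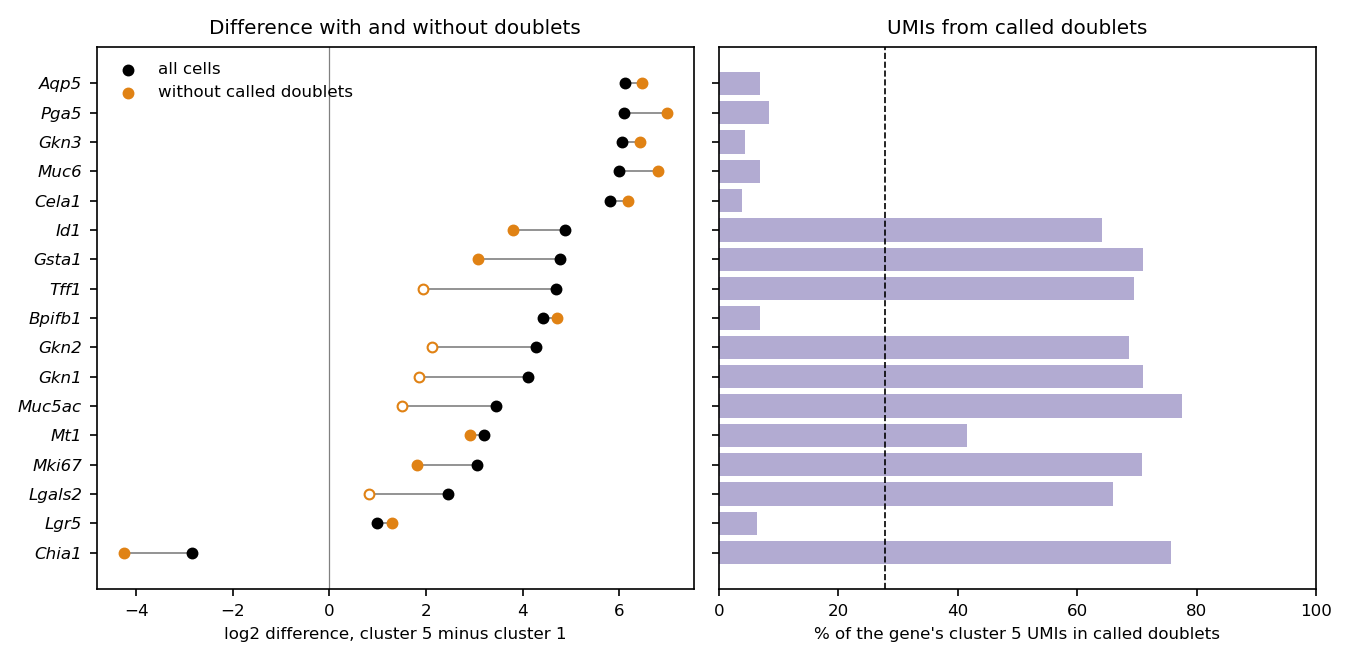
Left, log2 difference (cluster 5 minus cluster 1) of 17 genes with all cells (black) and without cells called doublets (orange, open where the gene no longer passed); right, the percentage of the gene's cluster 5 UMIs that came from called doublets, with a dashed line at 27.8%, their share of cluster 5's UMIs outside the 3 enzyme genes. Tff1, Gkn1, Gkn2, Muc5ac and Lgals2 shrink toward 0, while the neck genes, Cela1 and Lgr5 move outward.

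Of the other foreign markers, those of tuft and immune cells were sparse. Sums are given on the scale shared with cluster 0. Tuft cell markers summed to at most 3.76 TMM CPM in cluster 5 and 1.80 in cluster 1, and immune markers to at most 0.225 and 0.141, with Ptprc and Jchain at 0 in both clusters (cells with a Ptprc count had been removed by the authors). Of 5 endocrine markers 3 were lower and 0 higher, with sums of 44.4 to 115 TMM CPM in cluster 5 and 68.4 to 284 in cluster 1. Parietal markers were 4 higher and 3 lower of 9, with sums of 357 to 598 TMM CPM in cluster 5 and 275 to 380 in cluster 1. On the scale of the 2 clusters alone, Atp4a, the proton pump, had 13.5, 15.1, 36.9 and 19.7 TMM CPM in cluster 5 and 122, 68.6, 107 and 96.3 in cluster 1. Whether free RNA from other cells had a part in any of these levels was not tested.

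The sort was not used to make the clusters, so it could be set against them. Cluster 5 made up 30.0% (95% Wilson interval 24.1 to 36.5) and 13.5% (10.0 to 17.8) of the chief cells of both clusters in GFP+ 1 and GFP+ 2, and 29.8% (24.8 to 35.4) and 23.6% (19.7 to 28.1) in Ep+ 1 and Ep+ 2. The means were 21.7% ± 11.7 and 26.7% ± 4.38 (SD, n = 2 each), a difference of −5.02 percentage points (exact permutation test, two-sided, p = 1, with 0.333 the smallest possible). GFP+ 2 set this direction, and without it GFP+ 1 was 3.22 points above the Ep+ mean. The intervals cover counting error only. When the difference between the clusters was tested for a difference between GFP+ and Ep+ libraries, 0 of 10389 genes passed (0% called, edgeR's quasi-likelihood interaction test), with 548 genes at an unadjusted p below 0.05. The other settings run with edgeR gave 0 to 39 genes.

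Beyond the lists, the 12 genes with the largest rise among those with at least 50 TMM CPM on average were Pga5, Gkn3, Muc6, Gsta1, Tff1, Bpifb1, Gkn2, Gkn1, Mt1, Cpn1, Cfi and Lgals2. Mt1, a metallothionein that binds zinc, had 116, 62.9, 183 and 161 TMM CPM in cluster 5, against 10.7, 12.8, 16.1 and 14.7 in cluster 1. Cpn1, a carboxypeptidase, and Cfi, a protease of the complement system, both known as blood plasma proteins, rose by 2.92 and 2.47. The 12 genes with the largest fall were Try10, Try4, Psca, Chia1, Sostdc1, Gm35572, Pla2g1b, Gm12888, Clps, Cryab, Chac1 and Atp4a. Sostdc1, a secreted antagonist of BMP and Wnt signalling, had 11.9, 8.11, 18.3 and 16.1 TMM CPM in cluster 5, against 87.4, 91.3, 93.4 and 113 in cluster 1, and fell by 2.80. Cryab, a small heat shock protein, fell by 2.27, and the predicted genes Gm35572 and Gm12888 by 2.57 and 2.35. All 12 stayed lower on totals without the 3 genes and on totals of all UMIs.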

How the data were processed

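Single-cell 3′ libraries were processed by the authors with Cell Ranger 3.0.2 against mm10, per the submitters' processing notes, and the deposited table holds whole-number UMI counts of 17712 genes in 4449 cells with a cluster number per cell. The authors had removed cells with over 15% mitochondrial counts, over 8000 or under 1500 genes, and cells in which Ptprc or Pecam1 was counted. The authors clustered the cells with a graph-based method in Seurat on log-normalized counts of the most variable genes, and the number of components and the resolution were not given in the sources read. Counts were summed per library and cluster, and genes kept by edgeR's filterByExpr were tested with edgeR 4.0.16 (quasi-likelihood test, library as a block, TMM factors, Benjamini-Hochberg adjusted p below 0.05) in R 4.3.3, a procedure tested on simulated data. All adjusted p-values are from that test. Alternatives were other totals, UMIs per cell, DESeq2 1.42.0, other filters, no block, each library left out, each sort alone, thinning and removal of doublets, which Scrublet called per library through scanpy 1.11.5 (Python 3.11.15). Doublets were kept unless stated.

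Named genes were a set of chief cell genes, the 4 most abundant members of each role list and 3 of each marker list, all tested secreted products, Wnt and differentiation genes, and the 12 largest rises and falls, apart from an item that is not reported here. A further 30 genes, among them Id4, Mki67, Idi1, Phgdh, Slc3a2, Creld2, Calr, Canx, Pdia6, Dnajc3, Sdf2l1, Pdia3, Dnajc10, Dnajb1, Syvn1, Derl3, A4gnt, Zfp36, Nr4a1, Psap, Stc2, Kitl, Muc5ac and Epcam, were chosen after their values were seen. The genes and lists were chosen with earlier results of these data known. Promoters are from RefSeq (GRCm38.p6), and gene positions from GENCODE on mm10.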

Additional observations from a re-analysis of the deposited data

Results flagged for a closer look

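For 11 of 175 named genes, 1 library's log2 difference between cluster 5 and cluster 1 stood far from those of the other 3 libraries, and chance alone marks about 1 in 20 genes. Chia1 was −5.54 in GFP+ 1, against −2.22 to −2.02 in the others. Bpifb1 was 2.39 in GFP+ 2, against 4.88 to 5.22 in the others. Aqp5 was 6.43 in Ep+ 2, against 5.33 to 5.48 in the others. Ephb2 was 0.90 in Ep+ 2, against 0.23 to 0.31 in the others. Vcp was −0.44 in GFP+ 2, against −0.69 to −0.65 in the others. Hsp90ab1 was −0.43 in GFP+ 2, against −0.19 to −0.14 in the others. Ccnd1 was 2.40 in GFP+ 1, against 3.21 to 3.29 in the others. Mt1 was 2.25 in GFP+ 2, against 3.38 to 3.47 in the others. Lgals2 was 1.35 in GFP+ 1, against 2.58 to 2.83 in the others. Zfp36 was 1.19 in Ep+ 2, against 1.44 to 1.48 in the others. Nr4a1 was 1.72 in GFP+ 1, against 1.06 to 1.17 in the others.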

How the results depend on the processing

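The count of 4823 genes differing between cluster 5 and cluster 1 became 10154 on plain totals of all UMIs, 2408 of 3799 genes with at least 10 CPM on average and 2972 in the GFP+ libraries alone, and 3977 to 4496 with 1 library left out. DESeq2 called 3310 genes. The block here is the library itself, which both clusters share. Without this replicate block 4311 genes passed. Whether same-numbered libraries of the 2 sorts belong together could not be decided. Their differences between the clusters, centred on each gene's mean, had r of −0.55 and −0.21. A source that both clusters of a library share cancels in such differences. The count of genes whose difference depended on the sort was 1 per cell, 39 among every gene with a count and 3 with cluster 1 thinned to the depth of cluster 5, and 0 under the remaining settings run (not run with DESeq2). The log2 ratio of UMIs per cell (−1.46) was −2.16 for medians over cells, −1.82 without called doublets and −1.49 to −1.40 with 1 library left out. The difference in the share of cluster 5 between the sorts (−5.02 points) ranged over −13.26 to 3.22 with 1 library left out. The cause of these changes was not tested. On plain totals of all UMIs, 68 of 175 named genes changed sign, by the construction of that scale, with log2 differences of Cblif 1.08, Furin 0.29, Bhlha15 0.062, Bmi1 1.65, Gper1 0.41, Cdkn1c 0.49, Atf3 1.42, Atf4 1.44, Ddit4 0.60, Pnliprp2 0.58, Cel 0.25, Xbp1 1.05, Copz2 0.15, Rab3d 1.21, Foxa1 1.68, Foxa3 1.43, Mitf 1.18, Sp5 1.55, Asns 0.44, Hspa5 0.71, Ppib 1.16, Hsp90b1 1.12, Herpud1 0.38, Edem2 0.23, Vcp 1.06, Os9 0.78, Ssr4 0.080, Sec61b 0.60, Sec11c 0.91, Tmed3 0.83, Hspa8 1.14, Hsp90ab1 1.45, Hsp90aa1 1.37, Hspa1a 1.23, Jun 1.36, Jund 1.41, Btg2 1.44, Ccng1 1.19, Nars 0.75, Eprs 1.23, Sars 1.13, Tars 1.29, Gabarap 0.66, Lamp1 1.41, Atp6v0c 1.21, Map1lc3b 0.86, mt-Atp6 1.12, mt-Co3 0.99, mt-Co2 1.11, mt-Co1 1.39, Rpl41 0.79, Rplp1 1.18, Rpl13 1.27, B2m 1.59, Bmp2 1.32, Kcnj15 1.37, Ghrl 0.99, Chga 0.39, Sst 0.00794, Sdf2l1 0.56, Slc3a2 0.14, Phgdh 0.10, Creld2 0.40, Ddit3 1.38, Calr 1.16, Pdia6 1.07, Dnajc3 0.47 and Syvn1 0.35. On plain totals without Clps, Pla2g1b and Pgc 18 did, with Bmi1 0.37, Atf3 0.14, Atf4 0.16, Foxa1 0.39, Foxa3 0.14, Sp5 0.25, Hsp90ab1 0.17, Hsp90aa1 0.089, Jun 0.077, Jund 0.13, Btg2 0.16, Tars 0.008148, Lamp1 0.13, mt-Co1 0.11, B2m 0.31, Bmp2 0.046, Kcnj15 0.089 and Ddit3 0.11. With 1 library left out, Bmi1 ranged over −0.11 to 0.059, Canx ranged over −0.022 to 0.091 and Foxa1 ranged over −0.074 to 0.063. Other changes of sign were, per cell, Bmi1 0.20, Foxa1 0.22, Sp5 0.080 and B2m 0.13. With DESeq2 it was Foxa1 0.003937. In edgeR with DESeq2 size factors it was Foxa1 0.00312. With every gene with a count it was Canx −0.0007477. With at least 10 CPM it was Foxa1 0.16, Sp5 0.019 and B2m 0.079. Without the replicate block it was Foxa1 0.005318. In GFP+ libraries alone it was Bmi1 0.12, Foxa1 0.12 and B2m 0.037. In Ep+ libraries alone it was Tcf7 −0.006842, Chga 0.54 and Canx −0.040. Without called doublets it was Bmi1 0.029, Gata4 −0.018 and B2m 0.021. With cluster 1 thinned it was Canx −0.014.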
